A study of Mus musculus with 4 samples.

Results

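The genes described here encode transporters of sugars, carboxylates and organic ions. All genes with a single symbol on the array were taken from the families Slc2a, Slc5a, Slc13a, Slc16a, Slc17a, Slc22a and Slco, leaving out Slc2a1 and Slc2a3. This gave 89 of 19938 genes. Membership used no measured values, but the families were chosen with earlier results of these data known. By family there were 11 Slc2a, 13 Slc5a, 5 Slc13a, 13 Slc16a, 9 Slc17a, 23 Slc22a and 15 Slco genes. RefSeq lists 86 of them as protein coding, and the other 3 (Slc2a4rg-ps, Slc22a13b and Slco6b1) as pseudogenes or a long noncoding RNA. Slc2a4rg-ps matched by its name and is no transporter.

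Small water-soluble nutrients cross membranes through such carriers. Slc2a proteins let sugars run down their gradient, whereas Slc5a and Slc13a proteins use the sodium gradient to draw in sugars, inositol, vitamins, dicarboxylates or citrate. Slc16a proteins include the proton-coupled carriers of lactate and pyruvate, which need the partner proteins basigin or embigin to reach the cell surface. Slc17a proteins act mostly in lysosomes and vesicles. Slc22a and Slco proteins carry organic cations and anions, carnitine, urate, prostaglandins, hormones and drugs, and are best known from kidney and liver. Activated macrophages rely on glycolysis and export lactate, and they make itaconate, a dicarboxylate derived from the citric acid cycle.

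Marrow cells of C57BL/6J mice were cultured for 7 days, and total RNA of sorted cells was measured on 4 one-colour Affymetrix arrays. The GM-CSF group (2 arrays, called M1 by the submitters) grew with granulocyte-macrophage colony-stimulating factor and was gated as CD45+, MHCII+, CD8a- and F4/80+. The M-CSF group (2 arrays, called M2) grew with macrophage colony-stimulating factor from 20% L929 fibroblast supernatant and was gated as CD45+, F4/80+ and CD11b+. Growth factor, L929 supernatant and gate differed together and cannot be told apart, and neither group was an untreated control. All cells carried the same strain background, no genetic change was named, and the age of the mice and any pooling were not given in the sources used here. Nothing in the labels tells whether the arrays of a group came from different cultures or mice. The p-values therefore cover the spread between these arrays alone. That spread may be technical in the M-CSF pair, whereas the GM-CSF arrays held cells of different mice by their sex-linked genes (below). Precision is limited by the small number of arrays.

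The 8 macrophage markers checked (Adgre1, Csf1r, Itgam, Cd68, Fcgr1, Mertk, Lyz2 and Ptprc) lay above background in all 4 arrays, and their summed log2 level ran from 94.09 to 95.14 in the GM-CSF arrays and from 93.41 to 94.09 in the M-CSF arrays. Background here is the range of 1012 olfactory receptor genes, with a mean 95th percentile of 5.90 on the log2 scale. Of 6 dendritic cell markers 3 were higher in GM-CSF cells (Itgax, Clec9a and Ccr7). Flt3 (-0.32) and Xcr1 (-0.19) went the other way and Zbtb46 rose by 0.25, all without passing. The list summed to 41.25 and 42.33 against 33.88 and 33.97, a gap mostly from Itgax (4.53) and Clec9a (2.44). In the other lists Pf4 (megakaryocytes) and Dcn (stroma) were higher, and Mpo (neutrophil precursors), Cd4 (T cells) and Gp9 (megakaryocytes) lower. No other marker of these lists passed. Col1a1 (-0.29), Col1a2 (-0.16), Col3a1 (-0.10) and Pdgfra (-0.29) went against Dcn, and Cd3e (0.19) and Cd8a (0.02) against Cd4. S100a8 (0.89), Ly6g (1.02), Ltf (0.46), Camp (0.14) and S100a9 (0.01) went against Mpo, and Elane (-0.18) and Ngp (-0.09) with it. Itga2b (0.30) went with Pf4. Of 6 renal and hepatic markers, 4 lay above background in no array. The part of these markers in the results was not tested. The GM-CSF arrays differed in the X-inactivation RNA Xist, at 11.58 in replicate 1 and 4.93 in replicate 2, and in Y-linked Eif2s3y, at 3.66 and 9.10. Xist read 4.53 and 4.80 and Eif2s3y 9.32 and 9.17 in the M-CSF arrays. GM-CSF replicate 1 thus read as female, and GM-CSF replicate 2 and both M-CSF arrays as male. The GM-CSF arrays therefore held cells of different mice, and sex was not balanced between the groups. The part of sex in the results was not tested. None of the 89 transporter genes lies on the X chromosome.

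Most of these genes were dim. In all 4 arrays 30 members lay above the background of the array, 49 did so in none, and 10 in some. The filter on dim genes, which asks for at least 2 arrays above the 30th percentile of all probe sets, kept 53 members, and the other 36 read between 2.41 and 5.31. A gene high in a single group can pass that filter through that group alone.

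**Figure D1:**
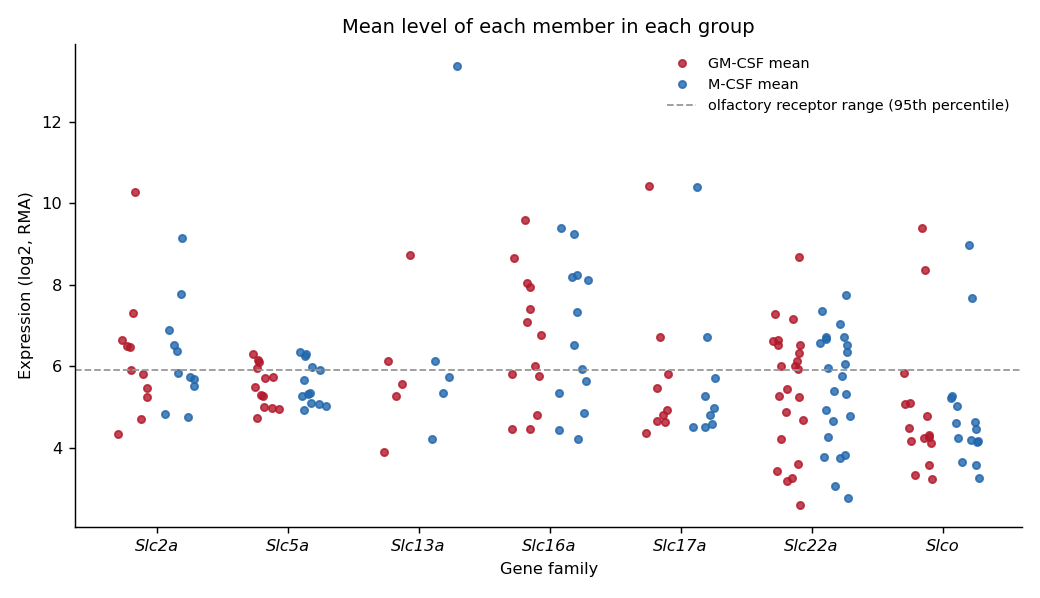
Mean log2 expression (RMA) of each of the 89 members in the GM-CSF (red) and M-CSF (blue) arrays, by gene family, 2 arrays per group, with the 95th percentile of olfactory receptor genes dashed. Most Slco and Slc17a members lie under the dashed line. The Slc13a points far above the rest of their family are both Slc13a3, at 13.37 in M-CSF and 8.72 in GM-CSF cells. Sideways spread within a column has no meaning.

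The comparison between groups asks how cells grown with GM-CSF differ from those grown with M-CSF. Of the 53 members tested, 4 were higher in GM-CSF cells (Slc16a3, Slc2a6, Slc22a4 and Slco4a1) and 4 were lower (Slc13a3, Slc16a9, Slc16a6 and Slc22a21), at a Benjamini-Hochberg adjusted p under 0.05 in limma over 14995 genes. Over all genes tested, 6.18% were called higher and 4.53% lower, against 7.55% of the members in each direction. Together, 15.1% of members and 10.7% of all genes were called. The member shares lie a little above those of all genes, on 4 members in each direction. The median log2 difference was -0.01 over the members and -0.01 over all genes. In 15 members both GM-CSF arrays lay above both M-CSF arrays, and in 16 both lay below (28.3% and 30.2% of members, against 26.3% and 29.2% of all genes tested). All 8 called members lay above background in all 4 arrays, and 5 of them differed at least 2-fold (9.43% of members against 4.23% of all genes).

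The calls depended on which array was left out. Without GM-CSF replicate 1, 6 members were higher and 5 lower (9.79% and 7.86% of all genes tested were). Without GM-CSF replicate 2, 6 were higher and 6 lower (11.2% and 10.2% of all genes). Without M-CSF replicate 1, Slc16a3 alone was higher and Slc16a9 alone lower (1.31% and 0.433% of all genes). Without M-CSF replicate 2, Slc16a6 alone passed (lower, log2 difference -1.28), and the differences of Slc16a3 (1.35) and Slc16a9 (-1.34) did not. In fits without an M-CSF array the spread comes from the GM-CSF pair, which lay farther apart. In fits without a GM-CSF array it comes from the M-CSF pair alone. A call there sets a single array against that pair and does not measure the GM-CSF spread. The log2 differences of the 8 members kept their direction with each array left out.

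**Figure D2:**
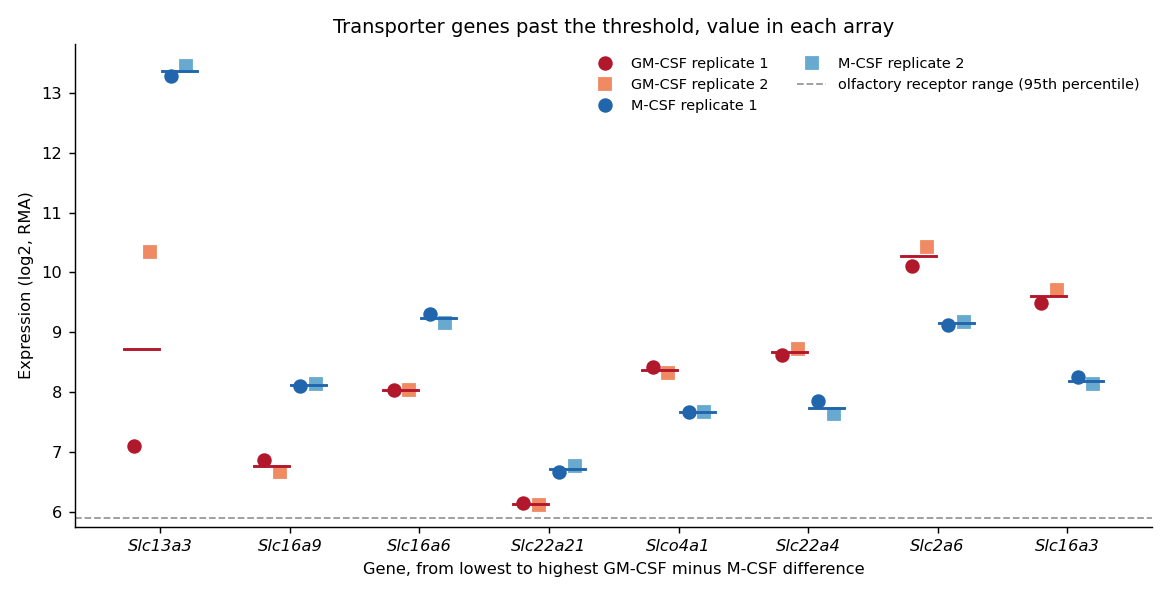
Log2 expression (RMA) in each array for the 8 members past the threshold, ordered by the GM-CSF minus M-CSF difference. Points are arrays, short lines are means of 2 arrays, and the dashed line is the 95th percentile of olfactory receptor genes. The GM-CSF points of Slc13a3 lie at 7.10 and 10.35, whereas the arrays of a group lie close together for the other 7 genes.

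Sodium-coupled carboxylate carriers were led by Slc13a3, which was lower in GM-CSF cells. Slc13a3 (NaDC3) takes up dicarboxylates such as succinate and alpha-ketoglutarate, and is known to carry itaconate. It read 13.29 and 13.45 in the M-CSF arrays. GM-CSF replicate 1 read 7.10 and replicate 2 read 10.35, so the groups did not overlap but the GM-CSF arrays lay 9.54-fold apart. The difference was -4.65 ± 0.93 (log2, SE, n = 2 per group), or 25.1-fold lower (limma, adjusted p = 0.0296). Leaving out GM-CSF replicate 1 gave -3.02 and leaving out replicate 2 gave -6.27, and Slc13a3 lost its call without M-CSF replicate 1 (limma, adjusted p = 0.245) and replicate 2 (0.251), and with trended and robust variances (0.253). Over all settings tried its adjusted p in limma ran from 1.87e-13 to 0.37. Fewer cells of a type and less RNA per cell cannot be told apart in such bulk samples, for this or any other gene.

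Of the other Slc13a members, 3 were tested and did not pass (from -0.19 to 0.02 on the log2 scale). Slc13a2 (NaDC1, a carrier of succinate and citrate in kidney and gut) read 5.43 and 5.67 in GM-CSF and 5.69 and 5.80 in M-CSF arrays. Slc13a5, the sodium-citrate carrier of liver, ran from 5.18 to 5.40 over the 4 arrays. Slc13a4, a sulfate carrier, ran from 6.01 to 6.25. Slc13a2 and Slc13a5 lay above background in no array, and Slc13a1, another sulfate carrier, was too dim to be tested.

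Upstream sequence is shown for the members with the largest difference in each direction, Slc13a3 and Slc16a3, and for Slc22a4, whose neighbours behaved differently (below). Each run is the 250 bases before the RefSeq start (GRCm38.p6), 5′ to 3′ on the gene's strand, at chr2:165473198-165473447 (minus strand) for Slc13a3, chr11:120948817-120949066 (plus) for Slc16a3 and chr11:54028105-54028354 (minus) for Slc22a4. Capitals mark CACGTG, the E-box hexamer, which reads the same on both strands.
Slc13a3: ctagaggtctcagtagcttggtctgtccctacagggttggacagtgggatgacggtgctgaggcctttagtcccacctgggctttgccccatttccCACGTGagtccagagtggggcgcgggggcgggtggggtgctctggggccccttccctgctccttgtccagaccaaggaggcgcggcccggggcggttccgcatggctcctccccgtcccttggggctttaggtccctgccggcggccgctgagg
Slc16a3: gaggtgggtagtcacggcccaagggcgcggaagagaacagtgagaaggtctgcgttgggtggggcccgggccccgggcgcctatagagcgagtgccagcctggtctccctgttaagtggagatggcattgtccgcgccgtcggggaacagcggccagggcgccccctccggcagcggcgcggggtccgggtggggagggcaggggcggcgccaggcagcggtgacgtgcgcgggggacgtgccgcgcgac
Slc22a4: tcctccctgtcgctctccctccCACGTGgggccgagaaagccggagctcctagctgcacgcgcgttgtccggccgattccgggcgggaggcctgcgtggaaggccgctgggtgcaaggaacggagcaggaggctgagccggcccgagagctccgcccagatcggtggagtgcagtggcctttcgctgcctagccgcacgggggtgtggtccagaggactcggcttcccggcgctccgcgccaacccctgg
RefSeq promoter entries were found for 72 of the 89 members. Of the 3 largest differences in each direction, 5 had an entry (Slc13a3, Slc16a9, Slc16a3, Slc2a6 and Slc22a4). CACGTG was present once in Slc13a3, its first base at -154 from the start, and once in Slc22a4, at -228, a member that was lower and a member that was higher. It was not found in the other 3 windows, and 6.02% of 32817 RefSeq promoter windows of that length hold it. The other letters searched on both strands, GAGGAA (PU.1-type ETS), TTCNNNGAA (STAT) and TGANTCA (AP-1), were in none of the 5 windows, and are held by 23.3%, 7.01% and 6.75% of all windows. The 5 windows were rich in G and C, from 65.2% to 73.6%, against a median of 52.4% over all windows.

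Monocarboxylate carriers moved in both directions. Slc16a3 (MCT4), the lactate exporter of glycolytic cells, read 9.50 and 9.71 in GM-CSF and 8.25 and 8.13 in M-CSF arrays. The groups did not overlap, and Slc16a3 was 2.66-fold higher in GM-CSF cells (log2 1.41 ± 0.12 SE, limma adjusted p = 0.00147), with an adjusted p of 0.0541 without M-CSF replicate 2 (limma). Slc16a1 (MCT1), the widespread carrier of lactate and pyruvate, read 6.91 and 7.27 against 6.57 and 6.45. Its arrays did not overlap either, but the difference of 0.58 ± 0.15 did not pass (limma, adjusted p = 0.061). It passed without GM-CSF replicate 1 (limma, adjusted p = 0.000871), with trended and robust variances and with array weights.

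Slc16a9 and Slc16a6 were lower in GM-CSF cells. Slc16a9 (MCT9), linked to carnitine and creatine transport, read 6.86 and 6.67 in GM-CSF and 8.11 and 8.13 in M-CSF arrays. Slc16a9 was 2.56-fold lower (log2 -1.36 ± 0.12 SE, limma adjusted p = 0.00137; 0.0509 without M-CSF replicate 2). As a mean with its dimmer second probe set, which read between 3.61 and 3.99, the difference was -0.69 (limma, adjusted p = 0.0149). Slc16a6 (MCT7), linked to the export of ketone bodies from liver cells, read 8.04 and 8.03 against 9.31 and 9.16. It was 2.30-fold lower (log2 -1.20 ± 0.11 SE, limma adjusted p = 0.00187; 0.0547 without M-CSF replicate 1). For both genes the arrays of a group lay within 0.19 log2 of each other, and the groups did not overlap.

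Besides Slc16a1, 6 Slc16a members tested did not pass. Slc16a10 (TAT1), a carrier of aromatic amino acids, read 8.21 and 9.08 in GM-CSF and 9.44 and 9.33 in M-CSF arrays. GM-CSF replicate 1 lay well under the other 3 arrays, and the difference of -0.74 ± 0.27 (limma, adjusted p = 0.15) was -0.31 without it and -1.18 without replicate 2, where it passed. Slc16a7 (MCT2), a pyruvate and lactate carrier, read 8.07 and 7.80 against 8.37 and 8.12 (-0.31, limma adjusted p = 0.254). Slc16a14, a carrier of little known function, read 6.27 in GM-CSF replicate 1 and between 5.33 and 5.37 in the other arrays, and passed when GM-CSF replicate 2 was left out (0.92, limma adjusted p = 0.000103). Slc16a13 ran from 7.25 to 7.52 and overlapped between the groups. Slc16a8 and Slc16a11 did not pass either and read at most 6.02, and Slc16a4, Slc16a5 and Slc16a12 were too dim to be tested.

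Among the facilitative sugar carriers Slc2a6 was higher in GM-CSF cells. Slc2a6 (GLUT6) is a hexose carrier found on lysosomes, known in macrophages from inflammatory activation. Slc2a6 read 10.11 and 10.43 in GM-CSF and 9.12 and 9.18 in M-CSF arrays. The difference was 1.12 ± 0.14 (log2, SE), or 2.18-fold (limma, adjusted p = 0.0053; 0.106 and 0.0997 without M-CSF replicates 1 and 2). Slc2a9, a urate carrier, read 7.19 and 7.39 against 7.71 and 7.82. Its groups did not overlap, and its difference of -0.47 ± 0.12 did not pass (limma, adjusted p = 0.0619), although it passed without GM-CSF replicate 2 (limma, 0.00661).

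The remaining Slc2a members gave small differences. Slc2a8 (GLUT8), an intracellular hexose carrier, read 6.61 and 6.69 against 6.88 and 6.92 (-0.25 ± 0.11, limma adjusted p = 0.203). Slc2a4 (GLUT4), the insulin-responsive glucose carrier, ran from 6.36 to 6.49 and Slc2a2 (GLUT2), that of liver and islets, from 5.82 to 5.97. Slc2a5, the fructose carrier, ran from 5.21 to 5.67 and lay above background in no array. In all, 8 Slc2a members tested did not pass, from -0.47 to 0.10 on the log2 scale.

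**Figure D3:**
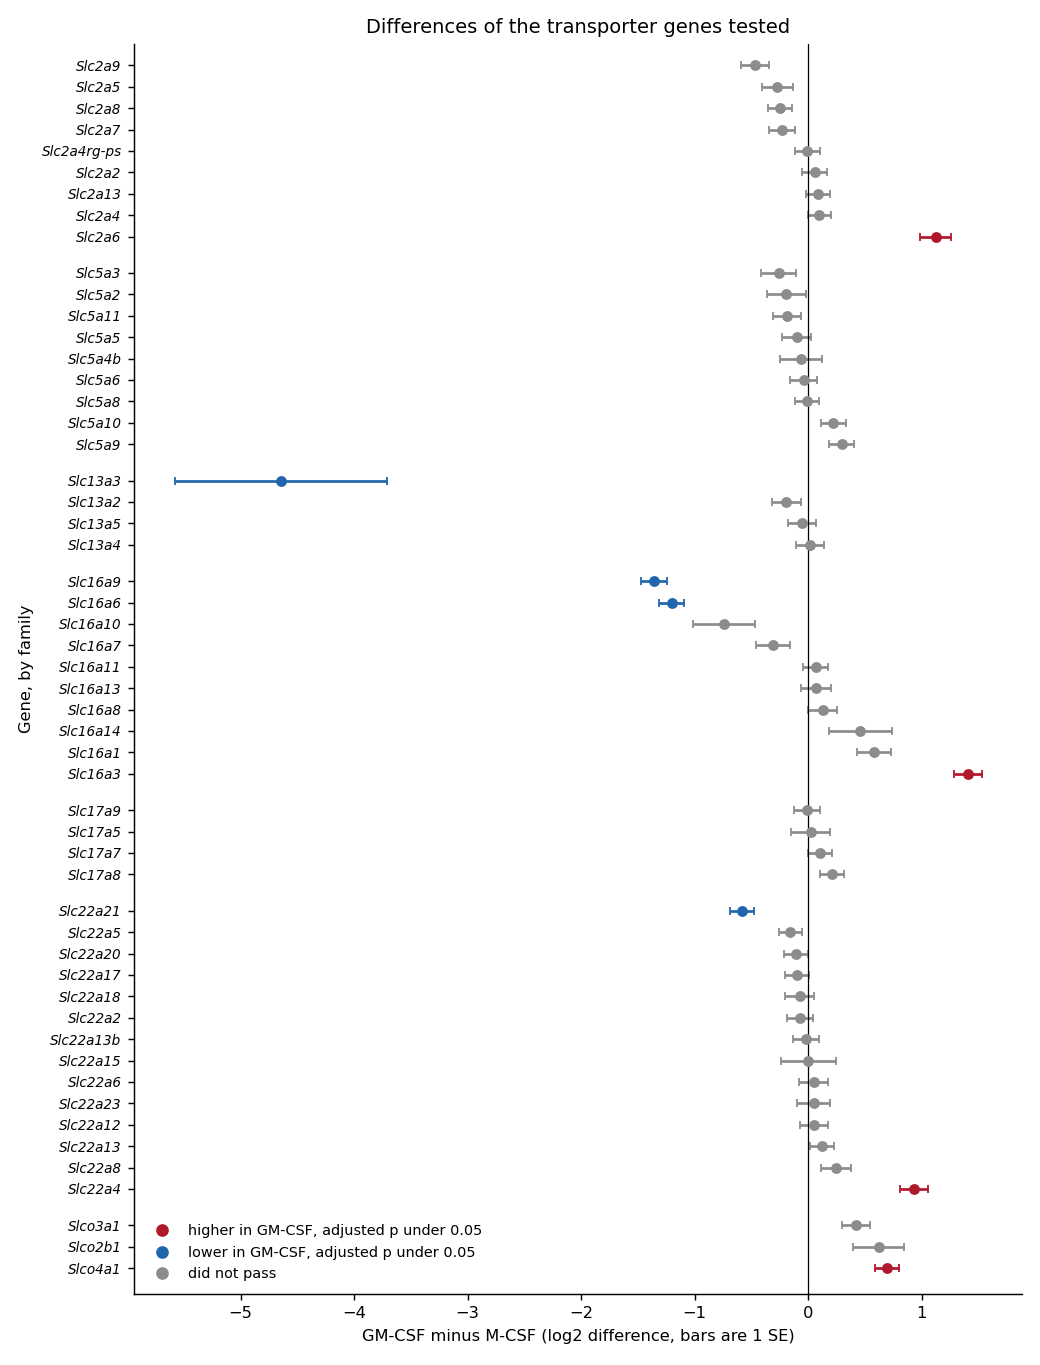
GM-CSF minus M-CSF difference (log2) of the 53 members tested, by family, with bars of 1 SE from limma (2 arrays per group). Red and blue mark the 4 members higher and the 4 lower in GM-CSF cells, and grey those that did not pass, which lie between -0.74 and 0.62.

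The carnitine and organic cation genes Slc22a5, Slc22a21 and Slc22a4 are consecutive protein-coding genes on chromosome 11 in RefSeq, and differed from one another. Slc22a4 (OCTN1), the carrier of the antioxidant ergothioneine, read 8.63 and 8.72 in GM-CSF and 7.85 and 7.63 in M-CSF arrays. Slc22a4 was 1.91-fold higher in GM-CSF cells (log2 0.93 ± 0.12 SE, limma adjusted p = 0.00693). Slc22a21 (OCTN3), a mouse carnitine carrier, read 6.15 and 6.12 against 6.66 and 6.76. Its GM-CSF values lay close to the background of those arrays (5.85 and 5.90). Slc22a21 was 1.5-fold lower (log2 -0.58 ± 0.11 SE, limma adjusted p = 0.0213). Slc22a5 (OCTN2), the main carnitine carrier, read 6.54 and 6.49 against 6.66 and 6.68, and its difference of -0.16 ± 0.10 did not pass (limma, adjusted p = 0.417).

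Slc22a4 therefore lay higher and Slc22a21 lower in GM-CSF cells, with no overlap of arrays for either. Both lost their call without M-CSF replicate 1 (limma, adjusted p = 0.0683 and 0.164) and replicate 2 (0.113 and 0.213). The 3 genes are close paralogs, and probes may not part them fully.

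**Figure D4:**
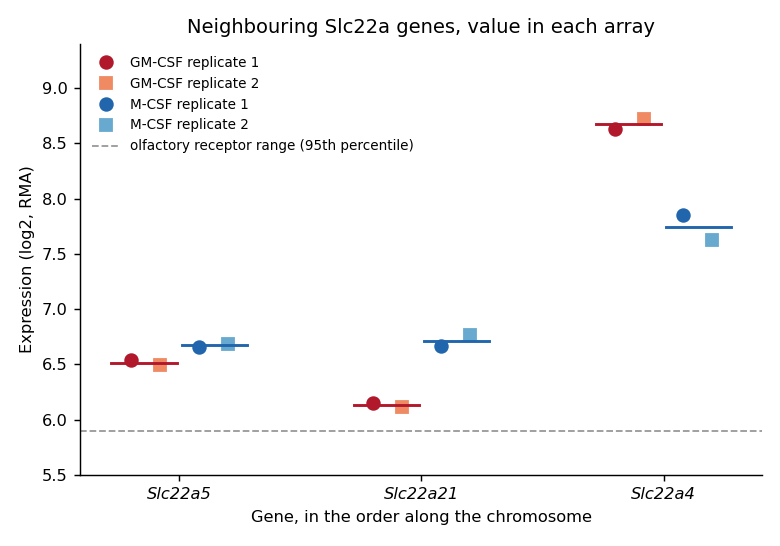
Log2 expression (RMA) of Slc22a5, Slc22a21 and Slc22a4 in each array, in their order along the chromosome, with means of 2 arrays as short lines and the 95th percentile of olfactory receptor genes dashed. Slc22a4 lies higher in the GM-CSF arrays (8.63 and 8.72 against 7.85 and 7.63), and Slc22a21 lower.

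With Slc22a5, 12 Slc22a members tested did not pass, between -0.16 and 0.24 on the log2 scale, and 7 of the 12 overlapped between groups. Slc22a18, an orphan carrier of an imprinted region, ran from 7.14 to 7.42. Slc22a13, a urate and nicotinate carrier, ran from 7.04 to 7.20. Slc22a17, a receptor for the iron-binding protein lipocalin-2, ran from 6.59 to 6.75. Slc22a15 read 6.90 and 6.14 in the GM-CSF arrays, on either side of the M-CSF values of 6.58 and 6.46. The renal anion carriers Slc22a6 (OAT1) and Slc22a8 (OAT3) read at most 5.53 and 6.15, and 9 members were too dim to be tested.

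Only 3 of 15 organic anion transporting polypeptide genes were tested. Slco4a1 (OATP4A1), a carrier of thyroid hormone and prostaglandins, read 8.43 and 8.31 in GM-CSF and 7.67 and 7.67 in M-CSF arrays. Slco4a1 was 1.62-fold higher in GM-CSF cells (log2 0.70 ± 0.11 SE, limma adjusted p = 0.0117; 0.148 and 0.155 without M-CSF replicates 1 and 2). Slco3a1 (OATP3A1), a prostaglandin carrier, read 9.30 and 9.49 against 8.90 and 9.04, and its difference of 0.42 ± 0.12 did not pass (limma, adjusted p = 0.0849). Slco2b1, a carrier of steroid sulfates and drugs, read 6.18 and 5.48 against 5.22 and 5.20 (0.62 ± 0.22, limma adjusted p = 0.146), and leaving out the first or second GM-CSF array gave 0.27 or 0.97. Slco3a1 passed without GM-CSF replicate 1 (limma, adjusted p = 0.0146) and Slco2b1 without replicate 2 (5.83e-05). The 12 others, among them the prostaglandin carrier Slco2a1 and the liver gene Slco1b2, read at most 5.27, above background in no array.

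No Slc5a or Slc17a member passed. Of 9 Slc5a genes tested in limma, 0 were called and 1 (Slc5a9) had an unadjusted p under 0.05. Slc5a6, the carrier of biotin and pantothenate, ran from 6.25 to 6.44, Slc5a2 (SGLT2) from 5.91 to 6.43 and Slc5a5, the iodide carrier, from 6.03 to 6.33. Slc5a3, the myo-inositol carrier, read 5.73 and 5.71 in GM-CSF and 6.18 and 5.78 in M-CSF arrays. Of 4 Slc17a genes tested, 0 were called by limma and 0 had an unadjusted p under 0.05. Slc17a5 (sialin), which carries sialic acid out of lysosomes, read 10.65 and 10.20 in GM-CSF and 10.48 and 10.32 in M-CSF arrays, so the groups overlapped. Slc17a9, which loads ATP into vesicles, ran from 6.61 to 6.80. The vesicular glutamate carriers Slc17a7 and Slc17a8 lay above background in no array.

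Genes that work with these carriers were taken from a list of 73 partners, of which 53 were tested. In limma 7 of them were higher in GM-CSF cells and 0 were lower (6.18% and 4.53% of all genes tested were), and 46 did not pass. At an unadjusted p under 0.05, 15 were higher and 5 lower (12.9% and 12.6% of all genes tested were). Of 9 lactate and monocarboxylate genes, 3 were higher. Emb (embigin), a partner of monocarboxylate carriers, read 11.37 and 10.87 in GM-CSF and 9.66 and 9.34 in M-CSF arrays (3.07-fold, log2 1.62 ± 0.20 SE, limma adjusted p = 0.00545). Bsg (basigin), the other such partner, read 10.35 and 10.32 against 10.03 and 9.97. Its difference of 0.34 ± 0.10 did not pass (limma, adjusted p = 0.0998). Hcar2, a receptor for ketone bodies and nicotinic acid, read 8.97 and 8.37 against 6.81 and 6.83 (3.61-fold). Ldhb, a lactate dehydrogenase subunit, read 7.84 and 7.57 against 7.10 and 6.93 (1.61-fold), and lost its call as a mean of its 2 probe sets. Mpc1, a subunit of the mitochondrial pyruvate carrier, differed by 0.54 ± 0.16 without passing (limma, adjusted p = 0.0873). Mpc1 passed when GM-CSF replicate 2 was left out (0.74, limma adjusted p = 0.000896) and not when replicate 1 was (0.34, 0.116).

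Of 10 citrate, succinate and itaconate genes, Acod1 and Idh1 were higher. Acod1, the enzyme that makes itaconate, read 12.65 and 12.97 in GM-CSF and 11.68 and 11.59 in M-CSF arrays (2.27-fold, log2 1.18 ± 0.14 SE, limma adjusted p = 0.00458), and Idh1, cytosolic isocitrate dehydrogenase, was 1.67-fold higher. Slc25a10, the mitochondrial dicarboxylate carrier, read 8.35 and 9.61 against 9.92 and 10.10. As for Slc13a3, GM-CSF replicate 1 lay lowest, and the difference of -1.03 ± 0.38 did not pass (limma, adjusted p = 0.151). Leaving out the first or second GM-CSF array gave -0.40 or -1.66. Of 9 prostaglandin, heme and thyroid hormone genes, 2 were higher: Ptgr1, a prostaglandin reductase, was 2.23-fold higher and Hmox1, heme oxygenase 1, was 1.68-fold higher. None of 6 carnitine, 4 fructose, inositol and urate, 7 monoamine and 8 sialic acid genes passed in limma, and 2, 1, 1 and 2 of them had an unadjusted p under 0.05. Slc6a4, the serotonin carrier, read 7.82 and 6.43 against 5.92 and 5.85 (1.23 ± 0.41, limma adjusted p = 0.121). The Slc6a4 difference was 0.54 without the first GM-CSF array and 1.93 without the second. Hdc, the histamine-forming enzyme, read 6.61 and 5.89 against 5.65 and 5.83 (0.51 ± 0.23, limma adjusted p = 0.241). Its difference was 0.15 without the first GM-CSF array and 0.87 without the second. Each of the 7 partners lost its call without M-CSF replicate 2, and all but Ptgr1 without M-CSF replicate 1.

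The 2 GM-CSF arrays were then set against each other, as a description with no test. Of the 53 members tested, Slc13a3 alone was at least 2-fold apart (1.89%), against 1.51% of all genes tested, so the share of members lies near that of all genes. In the M-CSF pair 0 members were 2-fold apart, against 0.0467% of all genes. At a lower limit of 1.5-fold, 5 members were apart in the GM-CSF pair (9.43%, against 5.16% of all genes) and 0 in the M-CSF pair (against 0.627%). The 5 were Slc13a3 and Slc16a10, which were lower in replicate 1, and Slc16a14, Slc22a15 and Slco2b1, which were higher there. Slc16a14 lay 1.88-fold apart, Slc16a10 1.83-fold, Slc22a15 1.70-fold and Slco2b1 1.62-fold.

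The log2 difference between replicates had an SD of 0.535 over the members in the GM-CSF pair and 0.148 in the M-CSF pair, against 0.325 and 0.180 over all genes tested. Without Slc13a3 the GM-CSF value was 0.299. The called members other than Slc13a3 differed by at most 0.32 log2 between the GM-CSF arrays (Slc2a6). A small spread within groups helps a gene pass, so that closeness is in part set by the selection. Other features of the samples moved with this pair. S100a8 and Ngp, 2 of 8 neutrophil markers, read 8.54 and 9.02 in GM-CSF replicate 1 and 7.04 and 7.02 in replicate 2. S100a9, Ltf and Ly6g were also higher in replicate 1 (by 0.88, 0.90 and 0.74 log2). Camp (-0.17), Elane (-0.18) and Mpo (-0.02) were not. The summed level of the neutrophil list was 54.75 and 49.11 in the GM-CSF arrays and 50.19 to 50.45 in the M-CSF arrays. The mast cell marker Cpa3 read 5.91 and 4.46, and the megakaryocyte marker Pf4 12.16 and 11.01. The other markers of those lists moved little: Mcpt8 by 0.08, Ms4a2 by 0.21, Fcer1a by -0.14, Itga2b by -0.07 and Gp9 by 0.06. H2-Aa, an MHC class II chain of the sort gate, read 10.25 and 11.45. With Xist and Eif2s3y (above), the markers that did differ part the same arrays as Slc13a3 and Slc16a10, and their part in those differences was not tested.

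**Figure D5:**
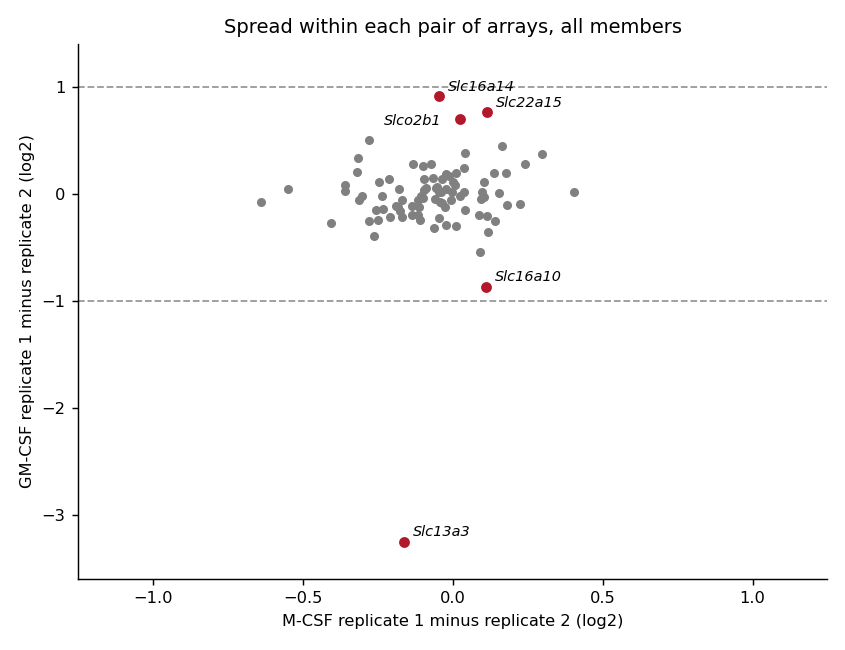
Replicate 1 minus replicate 2 (log2) of each of the 89 members in the GM-CSF pair (vertical) and the M-CSF pair (horizontal), with the 2-fold limits of the GM-CSF pair dashed. The named red points are the 5 tested members at least 1.5-fold apart in the GM-CSF pair, and Slc13a3 lies past the 2-fold limit.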

How the data were processed

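The deposited values are log2 expression per probe set from 4 one-colour Affymetrix arrays (300 ng total RNA each), to which the authors applied RMA; the submitters' processing notes name Affymetrix Expression Console 1.1. RMA subtracts background, brings arrays to one distribution and summarises probes, which shrinks differences at low signal and removes any shift in RNA content per cell. The level of summarisation and the genome build are not given in the sources used here, nor are scan dates or detection calls, so batches were not tested.

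Platform annotation gave 21789 of 35556 probe sets a single gene symbol (1621 several, 12146 none), 21698 of them matched to RefSeq (GRCm38.p6) with 0 symbols changed. A gene was represented by its probe set with the highest mean; among members only Slc16a9 had a second. Genes with at least 2 arrays above the array's 30th percentile were tested (14995).

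Differences are GM-CSF minus M-CSF, from limma 3.58.1 under R 4.3.3. A linear fit per gene and moderated two-sided tests (eBayes) with 2 residual and 4.17 prior degrees of freedom were followed by Benjamini-Hochberg adjustment over all genes tested and a threshold of 0.05. Folds are powers of the log2 difference. On simulated data for this comparison (14995 genes, 50 changed at each size) the fit recovered 0% of log2 changes of 0.5, 74% of 1, 98% of 2 and 100% of 3. The simulation gave both groups the same spread and changed far fewer genes than the 1605 called in these data. Its recovery therefore need not hold here. Python 3.11.15, pandas 2.3.3 and matplotlib 3.10.9 made the tables and plots.

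The members, gene lists, motifs and tests were chosen with earlier results of these data known, and the olfactory receptor background after the values were seen. Named with values were members past the threshold, members at least 2-fold apart between groups or between the GM-CSF arrays, the 3 brightest of each family, and partners past the threshold with up to 4 others. Bsg and other members were named after their values were seen. Other settings were quantile normalization, no filter or the 50th percentile, centring by array median (over all probe sets, and, added after seeing the data, over the genes tested), a replicate block, means of probe sets, array weights, an unmoderated statistic, variances fitted with a trend and robustly, an adjusted p of 0.01, 2-fold limits, and each array left out (genes tested kept; the lone array then takes its spread from the other group).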

Additional observations from a re-analysis of the deposited data

How the results depend on the processing

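With no filter, the 50th percentile, quantile normalization, either centring, means of probe sets or the replicate block, the called members stayed 4 higher and 4 lower (the same genes). Trended and robust variances gave 5 and 3, and array weights 5 and 4; both added Slc16a1, and the former lost Slc13a3. The unmoderated statistic called 0 members in either direction, and 0 genes higher and 1 lower in all. At its unadjusted p under 0.05, 6 of 53 members were higher and 5 lower (8.5% and 8.29% of all genes tested were). The largest adjusted p of the called members over all settings lay between 0.196 (Slc16a6) and 0.37 (Slc13a3). At an adjusted p of 0.01, 3 members were higher and 2 lower (438 and 223 of all genes), and with a 2-fold limit 2 and 3 (445 and 190). With an array left out, the members numbered from 0 to 6 higher and from 1 to 6 lower, and all genes from 168 to 1683 and from 65 to 1522. Centring on the genes tested gave 841 higher and 865 lower genes, against 926 and 679. In the GM-CSF pair, 5 members and 774 genes were at least 1.5-fold apart, and 1 and 40 at least 4-fold. No pairing by replicate number was seen: deviations of same-numbered arrays correlated at 0.065 across genes, and the replicate block gave 966 higher and 674 lower genes. Each group gives only a single such deviation, so whether same-numbered arrays shared a batch was not tested.

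Of 36 genes followed through the other settings, 7 that did not pass changed sign. Centred on the genes tested, Slc13a4 differed by -0.025 and Slc17a5 by -0.022. With an array left out in turn, Slc13a4 ran from -0.101 to 0.137, Slc17a5 from -0.204 to 0.247, Slc17a9 from -0.106 to 0.083, Slc22a18 from -0.217 to 0.064, Slc5a2 from -0.39 to 0.008, Slc5a5 from -0.208 to 0.006 and Slc5a6 from -0.133 to 0.052. The causes were not tested. Levels near the olfactory receptor range limit what differences could be seen for most members.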
